A study of Homo sapiens with 4 samples.

Results

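A set of 10 genes that modify, fold and trim procollagen was followed in LX-2 cells, an immortalized line of human hepatic stellate cells, after transfection with a miR-6133-5p mimic. The list was drawn up by role in collagen biosynthesis, with earlier results of these data known. It holds the collagen prolyl 4-hydroxylase subunits *P4HA1*, *P4HA2*, *P4HA3* and *P4HB*, the lysyl hydroxylases *PLOD1*, *PLOD2* and *PLOD3*, the collagen chaperone *SERPINH1*, the procollagen C-proteinase *BMP1* and its enhancer *PCOLCE*. All 10 were found among the 63677 genes of the count table and all 10 were among the 18252 genes tested. The comparison was between 2 libraries from cells given the miR-6133-5p mimic and 2 libraries from cells given miControl, a negative control mimic, each at 20 nM. Both groups received rhTGF-β1, the recombinant form of the fibrogenic cytokine TGF-β1, at 5 ng/mL from 24 h after transfection, and RNA was taken 24 h after that. The groups therefore differed in the mimic and shared the cell line, the transfection and the rhTGF-β1. A single cell line in culture was used, and the labels do not say whether the libraries of a group came from separate cultures, so p-values measure the spread between these libraries, which may be technical.

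Collagen chains are modified in the endoplasmic reticulum before they leave the cell. Prolyl 4-hydroxylase, built from α subunits and the β subunit P4HB, hydroxylates proline so that the triple helix is stable at body temperature, and lysyl hydroxylases make the hydroxylysine used for sugar attachment and for cross-links. SERPINH1, also known as HSP47, binds the folded helix in the endoplasmic reticulum, and BMP1 cuts off the C-terminal propeptide outside the cell so that fibrils can form. Activated stellate cells are the main source of fibrillar collagen in the fibrotic liver.

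The gene counts of a library totalled 51862006 and 57903388 for the controls and 61747010 and 93811213 for the mimic, so the mimic libraries were the deeper ones. A level is given here as CPM, the counts scaled to a common library total that was itself adjusted by the trimmed mean of M-values (TMM), and 1 count was worth between 0.0101 and 0.0203 CPM. All 8 of the stellate or mesenchymal marker genes listed were measured well enough to be tested. The 10 markers of hepatocytes, epithelium, endothelium and leukocytes, 9 of which could be matched to the count table, summed to between 2.46 and 3.38 CPM. The summed level of the 8 mesenchymal markers was 9336 and 8735 CPM in the controls and 6424 and 5781 CPM in the mimic libraries. Of these markers, 5 passed the test described below as lower, where 10.9% of all genes tested did. Among them were *COL1A1*, with means of 2917 and 1064 CPM, and *SPARC*, with 3639 and 2751 CPM. *VIM*, *PDGFRB* and *TIMP1* did not pass, with log2 fold changes of −0.02, 0.04 and 0.42 for the mimic over miControl. In bulk RNA, fewer cells with a transcript and less of it per cell cannot be told apart.

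A gene passed where the edgeR quasi-likelihood test gave a Benjamini–Hochberg adjusted p under 0.01 over all genes tested, and it was called where its log2 fold change also lay beyond 0.8. Of the 10 genes, *PLOD2*, *P4HB*, *SERPINH1* and *P4HA2* fell and *BMP1* rose in the miR-6133-5p libraries. The 4 genes that passed as lower compare with 10.9% of all genes tested, and the 1 that passed as higher with 7.96%. *PLOD2* was the only one of the 10 called as lower, where 5.54% of all genes were, and 0 of the 10 were called as higher, where 2.9% of all genes were. Both mimic libraries were lower than both controls for 7 genes and higher for 3, and the groups overlapped for none. Across all genes tested, 31.3% were entirely below and 33.2% entirely above. The median log2 fold change of the 10 genes was −0.38, beside 0.03 over all genes tested. With library totals in place of TMM, 1415 genes passed as lower and 2826 as higher, against 1984 and 1452 with TMM, and the median over all genes was 0.19. The 10 genes kept about the same distance from that median under either scaling, as a change of scaling moves all genes nearly alike.

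**Figure D1:**
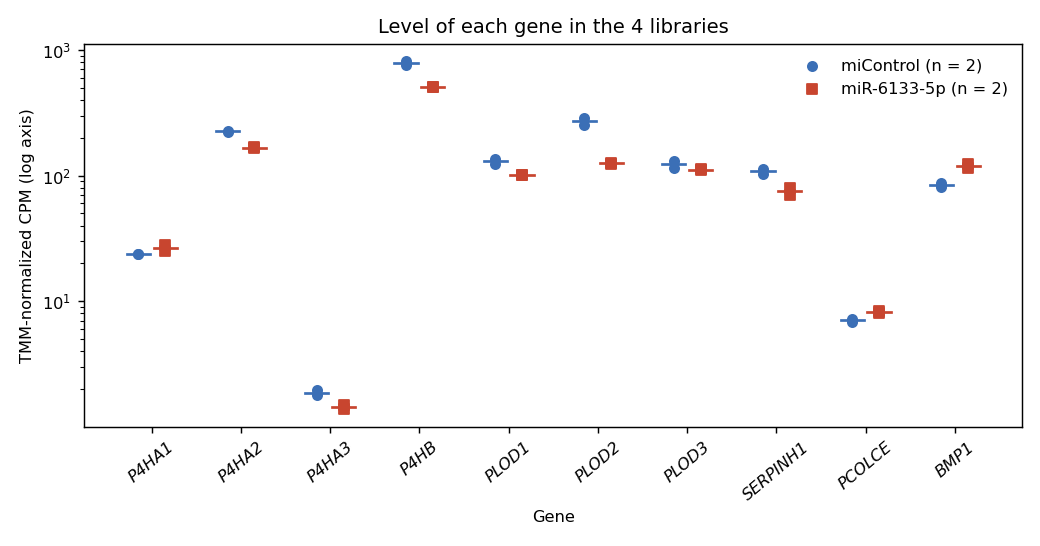
Level of each of the 10 genes in each library, in TMM-normalized CPM on a log axis, with circles for the 2 miControl and squares for the 2 miR-6133-5p libraries and a bar at each group's mean. *P4HB* is the highest at between 503 and 812 CPM and *P4HA3* the lowest at between 1.38 and 1.95 CPM, and the symbols of *PLOD2* are the farthest apart.

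**Figure D2:**
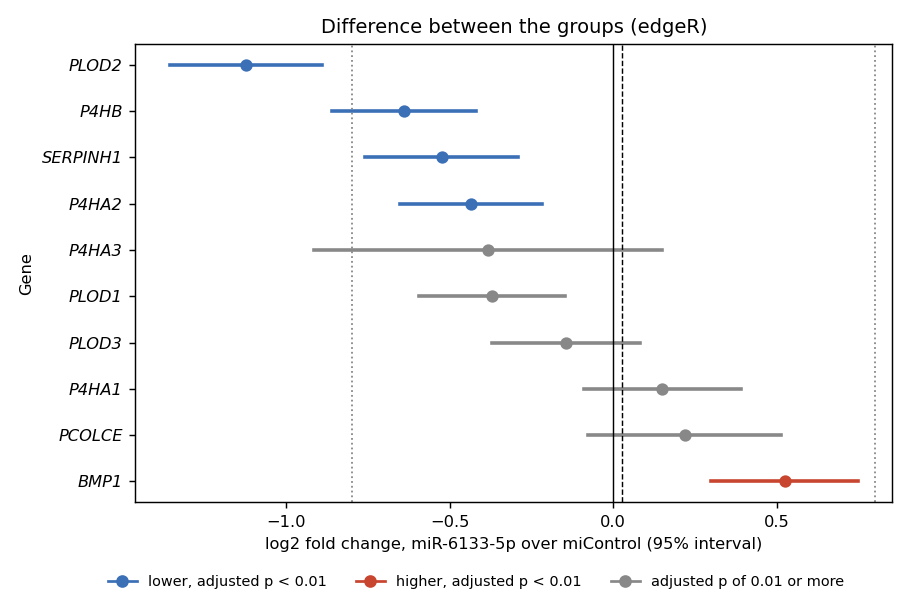
Log2 fold change of each gene with its 95% interval from edgeR, colored by whether it passed at an adjusted p of 0.01. The dashed line is the median of all genes tested, 0.03, and the dotted lines mark the fold threshold of 0.8. The estimate for *PLOD2* is the only one beyond a dotted line, and the interval for *BMP1* is the only one wholly above the dashed line.

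Of the 3 lysyl hydroxylases, *PLOD2* fell, and *PLOD1* and *PLOD3* did not pass the test. *PLOD2* (ENSG00000152952, chr3:145752926-145881512, minus strand, GRCh37) encodes the enzyme that hydroxylates lysine in the collagen telopeptides, the residues from which the stable cross-links of scar collagen are built. The controls had 255 and 290 CPM and the mimic libraries 126 and 124 CPM. The latter were close to each other and well under the lower control library. The group means of 273 ± 24.7 and 125 ± 1.53 CPM (SD, n = 2 each) differ by −54.1%. In edgeR this was a log2 fold change of −1.12 with a standard error of 0.108, a 95% interval of −1.36 to −0.89 and an adjusted p of 5.62e-06. It ranked 847 from the lowest log2 fold change of the 18252 genes tested. With each library left out in turn, the log2 fold change of *PLOD2* ranged from −1.22 to −1.06, and it was called each time. Tested against a log2 fold change of 0.8 itself with glmTreat, the adjusted p was 0.0353, so the excess over that threshold did not pass.

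*PLOD1* (ENSG00000083444, chr1:11994262-12035595, plus strand) encodes the lysyl hydroxylase that acts mainly on the helical part of the chain. It stood at 136 and 125 CPM in the controls and at 101 CPM in both mimic libraries. The edgeR log2 fold change was −0.37 with a 95% interval of −0.59 to −0.15 and an adjusted p of 0.0153, short of the threshold. Whether it passed turned on the settings, as the adjusted p was 0.00903 with no filter on low counts, 0.00353 in DESeq2, and 0.00448 or 0.00315 in edgeR without miR-6133-5p replicate 1 or 2. *PLOD3* (ENSG00000106397, chr7:100849258-100861701, minus strand) encodes a lysyl hydroxylase that can also transfer sugars to hydroxylysine. The controls had 130 and 116 CPM and the mimic libraries 112 and 110 CPM, so the groups nearly touched. The log2 fold change was −0.14, with a 95% interval of −0.37 to 0.08 and an edgeR adjusted p of 0.340. Scaled by library totals alone the log2 fold change was 0.0201, where the median of all genes was 0.19.

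The mix of lysyl hydroxylase transcripts shifted with the fall of *PLOD2*. The log2 ratio of *PLOD2* to *PLOD3* counts was 0.97 and 1.32 in the control libraries and 0.17 in both mimic libraries. The difference of −0.98 corresponds to a ratio 0.507 times that of miControl. The *PLOD1* to *PLOD2* ratio was 1.68 times as high with the mimic, and the *PLOD1* to *PLOD3* ratio was 0.854 times as high. The groups did not overlap for any of these 3 ratios, which do not depend on how libraries are scaled. The exact permutation test gave p = 0.333 for each, two-sided, the smallest value that 2 libraries against 2 allow, so these ratios cannot reach significance on their own. Per kilobase of merged exon, *PLOD2* made up 28.9% ± 3.35 (SD, n = 2) of the 3 transcripts with miControl and 18.2% ± 0.102 with miR-6133-5p, while *PLOD3* went from 33.3% ± 1.87 to 41.6% ± 0.296. The 3 genes together came to 526 ± 6.41 CPM in the controls and to 337 ± 2.74 CPM with the mimic.

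**Figure D3:**
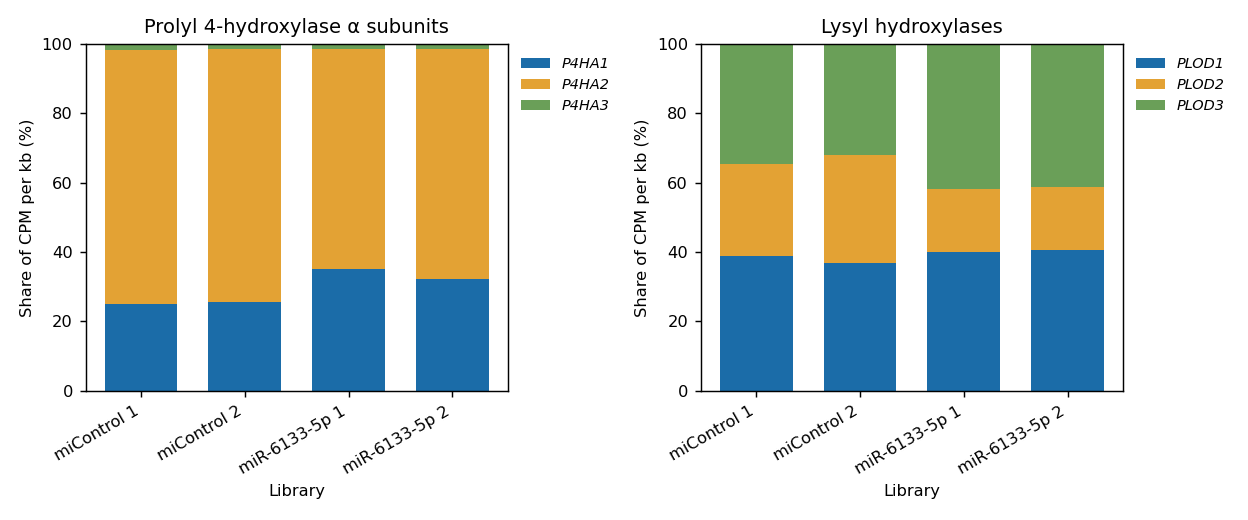
Share of each gene in its family in each library, in percent of the family's summed CPM per kilobase of merged exon, for the prolyl 4-hydroxylase α subunits (left) and the lysyl hydroxylases (right). The *PLOD2* band is narrower in both miR-6133-5p libraries, with a mean of 18.2% against 28.9%, and the *P4HA1* band is wider, with a mean of 33.7% against 25.3%.

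Among the prolyl 4-hydroxylase genes, the β subunit and the main α subunit fell. *P4HB* (ENSG00000185624, chr17:79801035-79818732, minus strand) encodes the β subunit, a protein disulfide isomerase that also serves folding proteins other than collagen. The controls had 812 and 757 CPM and the mimic libraries 503 and 504 CPM. The means were 784 ± 38.4 and 503 ± 0.440 CPM (SD, n = 2 each), a change of −35.8%, and the edgeR log2 fold change was −0.64 with a standard error of 0.101 and an adjusted p of 0.000368. Without miControl replicate 1 the log2 fold change was −0.60 and the adjusted p 0.0325, which did not pass.

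*P4HA2* (ENSG00000072682, chr5:131525840-131631008, minus strand), one of the alternative catalytic α subunits, had 228 and 224 CPM in the controls and 165 and 169 CPM in the mimic libraries. The groups were far apart relative to their spread, with means of 226 ± 2.95 and 167 ± 3.33 CPM (SD, n = 2 each). The edgeR log2 fold change was −0.43 with a standard error of 0.100, a 95% interval of −0.65 to −0.22 and an adjusted p of 0.00524. It did not pass under scaling by library totals alone (log2 fold change −0.27, edgeR adjusted p 0.0508), nor without miControl replicate 1 (−0.43) or 2 (−0.48). The distance of *P4HA2* from the median of all genes was −0.46 under both scalings. A change of scaling moves all genes nearly alike, so that distance is no further evidence of a fall.

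*P4HA1* (ENSG00000122884, chr10:74766975-74856732, minus strand), the α subunit of the type I enzyme, stood at 23.8 and 24.0 CPM in the controls and at 27.9 and 25.1 CPM in the mimic libraries. The groups did not overlap, but the lower mimic library was closer to the controls than to the other mimic library. The edgeR log2 fold change was 0.15 with a 95% interval of −0.09 to 0.39 and an adjusted p of 0.348. *P4HA3* (ENSG00000149380, chr11:73946846-74022685, minus strand), another α subunit, was scarce, with 96 and 97 counts in the controls and 97 and 137 in the deeper mimic libraries, where the mates of a read pair were counted separately. These were 1.95 and 1.78 CPM against 1.48 and 1.38 CPM. The log2 fold change was −0.38 with a 95% interval of −0.91 to 0.15 and an edgeR adjusted p of 0.271, so at this depth neither a fall of the size seen for *PLOD1* nor its absence could be told.

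The ratio of *P4HA1* to *P4HA2* within a library was higher with miR-6133-5p. The counts of *P4HA1* per count of *P4HA2* were 0.104 and 0.107 with miControl and 0.169 and 0.148 with miR-6133-5p, a difference of 0.58 on the log2 scale. Per kilobase of merged exon, *P4HA1* made up 25.3% ± 0.379 (SD, n = 2) of the α subunit transcripts with miControl and 33.7% ± 2.05 with miR-6133-5p, and *P4HA2* 73.1% ± 0.293 and 64.9% ± 2.11. The β subunit fell relative to the α subunits together, from 3.20 and 3.03 to 2.59 and 2.57 *P4HB* counts per α subunit count. The ratio of *P4HA2* to *P4HA3* overlapped between the groups, with a log2 difference of −0.05 that was 0.0177 without miR-6133-5p replicate 1. Over the 9 ratios compared in all, the exact permutation p was 0.667 for this one and 0.333 for the other 8, and no adjusted value could be lower.

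*SERPINH1* (ENSG00000149257, chr11:75273101-75283828, plus strand), the collagen-specific chaperone, fell. The controls had 114 and 103 CPM and the mimic libraries 80.1 and 70.7 CPM, or means of 108 ± 7.20 and 75.4 ± 6.61 CPM (SD, n = 2 each). The edgeR log2 fold change was −0.53 with a standard error of 0.109, a 95% interval of −0.76 to −0.29 and an adjusted p of 0.00257. The adjusted p was 0.0199 under scaling by library totals alone, and in edgeR it was 0.0705 without miControl replicate 1 (log2 fold change −0.47) and 0.0152 without miControl replicate 2 (−0.62). Its client *COL1A1*, the α1 chain of type I collagen, fell further, with means of 2917 ± 275 and 1064 ± 97.5 CPM (SD, n = 2 each) and a log2 difference of −1.46. The number of *SERPINH1* counts per *COL1A1* count was 0.0365 and 0.0380 with miControl and 0.0805 and 0.0624 with miR-6133-5p, 1.90 times as high, with an exact permutation p of 0.333. No ratio to another collagen chain was computed. Beside the −0.53 of *SERPINH1*, the log2 fold change was −1.11 for *COL1A2*, −0.44 for *COL3A1*, −0.04 for *COL5A2* and 0.06 for *COL5A1*.

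The C-proteinase went the other way. *BMP1* (ENSG00000168487, on chromosome 8, plus strand), which removes the C-propeptides of fibrillar procollagens and also activates the precursor of lysyl oxidase, had 86.6 and 80.6 CPM in the controls and 116 and 125 CPM in the mimic libraries. The lower mimic library was well above the higher control library. The means were 83.6 ± 4.22 and 120 ± 6.20 CPM (SD, n = 2 each), a change of 43.8%, and the edgeR log2 fold change was 0.52 with a standard error of 0.104 and an adjusted p of 0.00190. It did not pass without miControl replicate 1 (log2 fold change 0.57, adjusted p 0.0392) or 2 (0.45, adjusted p 0.0781). A share of 6.5% of its merged exon bases lay in another gene on the same strand.

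*PCOLCE* (ENSG00000106333, chr7:100199986-100205798, plus strand), whose product binds the C-propeptide and speeds its removal by BMP1, was at 7.20 and 6.87 CPM in the controls and at 8.30 and 8.07 CPM in the mimic libraries. The edgeR log2 fold change of 0.22 had a 95% interval of −0.08 to 0.51 and an adjusted p of 0.258. Of its merged exon bases, 16.8% lay opposite an exon of *PCOLCE-AS1*, the largest such share among the 10 genes, and the strand setting of the counting is not given in the sources used here. The number of *PCOLCE* counts per *BMP1* count was 0.0831 and 0.0852 with miControl and 0.0717 and 0.0648 with miR-6133-5p.

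Compared per length, *P4HB* was the most abundant of the 10 transcripts and *P4HA3* the least in both groups. With miControl the CPM per kilobase of merged exon was 70.5 for *P4HB*, 24.5 for *PLOD1*, 22.3 for *P4HA2*, 21.7 for *PLOD3*, 18.8 for *PLOD2* and 17.3 for *SERPINH1*. It was 11.8 for *BMP1*, 7.72 for *P4HA1*, 2.10 for *PCOLCE* and 0.468 for *P4HA3*. Merged exons of this annotation can include introns retained in some transcript, and for *P4HB* they came to 11132 bases in 6 blocks against 2437 bases in the 11 exons of its canonical transcript. With canonical lengths, an alternative chosen after the data were seen, the CPM per kilobase was 322 ± 15.8 for *P4HB*, 72.7 ± 6.60 for *PLOD2*, 52.7 ± 3.50 for *SERPINH1*, 49.7 ± 0.648 for *P4HA2*, 43.9 ± 2.81 for *PLOD1* and 43.6 ± 3.54 for *PLOD3* (SD, n = 2 each). On that scale *SERPINH1* and *P4HA2*, and *PLOD1* and *PLOD3*, did not differ beyond their spread. The place of *PLOD2* thus depended on the length used, and its share of the lysyl hydroxylase transcripts was 45.4% ± 4.05 with miControl and 31.3% ± 0.137 with miR-6133-5p by canonical length. It was lower in both mimic libraries by either length.

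The promoters of the 4 genes that fell are shown to compare what lies at their start sites. They come from RefSeq on GRCh38.p14, a build other than that of the counts, and run from 250 bases before the start site through 50 bases from it, read 5′ to 3′ on the strand of the gene. Windows were compared for 8 of the 10 genes. *P4HA3* and the gene that rose were not among them, so their promoters are not described here. Capitals mark the hypoxia response core (ACGTG or GCGTG), the CCAAT box (CCAAT) and a pair of inverted heat shock units (GAANNTTC), each searched on both strands. The heat shock pair reads the same on both strands, and a hypoxia core and its complement could overlap. The position of each promoter is chr3:146161135-146161434 for *PLOD2*, chr17:81860486-81860785 for *P4HB*, chr11:75562003-75562302 for the first of the 2 listed for *SERPINH1* and chr5:132227042-132227341 for *P4HA2*.
PLOD2: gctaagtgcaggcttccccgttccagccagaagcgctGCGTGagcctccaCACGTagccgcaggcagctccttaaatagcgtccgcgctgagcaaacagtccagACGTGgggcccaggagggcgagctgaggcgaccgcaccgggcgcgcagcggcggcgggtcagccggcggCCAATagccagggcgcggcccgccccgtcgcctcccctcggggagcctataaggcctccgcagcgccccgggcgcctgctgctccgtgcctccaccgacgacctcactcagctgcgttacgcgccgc
P4HB: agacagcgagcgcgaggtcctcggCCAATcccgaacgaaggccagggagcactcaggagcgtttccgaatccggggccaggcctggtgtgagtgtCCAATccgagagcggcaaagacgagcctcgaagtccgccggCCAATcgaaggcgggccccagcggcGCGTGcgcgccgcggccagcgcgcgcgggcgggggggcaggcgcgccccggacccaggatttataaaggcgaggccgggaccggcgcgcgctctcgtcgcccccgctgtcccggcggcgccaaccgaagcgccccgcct
SERPINH1: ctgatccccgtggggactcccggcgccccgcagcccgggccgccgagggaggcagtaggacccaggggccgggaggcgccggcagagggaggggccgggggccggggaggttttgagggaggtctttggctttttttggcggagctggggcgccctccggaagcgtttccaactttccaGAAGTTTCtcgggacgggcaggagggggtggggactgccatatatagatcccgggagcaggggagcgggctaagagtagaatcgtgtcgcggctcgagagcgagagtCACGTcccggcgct
P4HA2: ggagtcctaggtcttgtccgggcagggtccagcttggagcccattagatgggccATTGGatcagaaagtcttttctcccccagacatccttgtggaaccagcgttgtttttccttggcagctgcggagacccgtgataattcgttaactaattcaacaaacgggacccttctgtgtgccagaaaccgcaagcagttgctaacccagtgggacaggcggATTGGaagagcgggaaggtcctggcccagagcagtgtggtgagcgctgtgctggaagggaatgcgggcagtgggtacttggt
The *PLOD2* window held 3 hypoxia cores and 1 CCAAT box, and the *P4HB* window held 1 and 3. The *SERPINH1* window held 1 hypoxia core and the heat shock pair, and the *P4HA2* window held 2 CCAAT boxes. The other window listed for *SERPINH1*, which overlaps the one shown, held 3 hypoxia cores and 1 CCAAT box. Of these cores, 1 is the same site as the core in the window shown. The window shown for *SERPINH1* held no CCAAT box. Of the genes that did not pass, *P4HA1*, *PLOD1* and *PCOLCE* had windows with 1, 2 and 2 hypoxia cores. *PLOD1* also had the heat shock pair, *PLOD3* had none of the motifs, and none of these windows held a CCAAT box. A link between the motifs and the falls was not tested. Among all 35116 promoters of that table, 48.4% held a hypoxia core, 34.6% a CCAAT box and 6.77% the heat shock pair, so the first 2 are common. These matches describe letters and not sites in use.

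The transfected mimic corresponds to the mature 5p arm of the microRNA gene *MIR6133*, whose hairpin in RefSeq lies at chr7:133290881-133290988 on the plus strand of GRCh38.p14. The hairpin is shown because it is the source of the microRNA compared here, and no mature arm is marked because the table used gives none.
MIR6133 hairpin: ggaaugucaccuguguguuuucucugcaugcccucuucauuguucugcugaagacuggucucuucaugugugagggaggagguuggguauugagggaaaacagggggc

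The neighbouring steps of collagen maturation were compared through 4 lists of other genes. Of their 28 genes, 24 were tested, 11 passed as lower and 0 as higher, 6 of the 11 were called, and the median log2 fold change was −0.39. Of all genes tested, 10.9% passed as lower, 7.96% passed as higher and 5.54% were called as lower. Among the prolyl 3-hydroxylases and collagen prolyl isomerases, 3 of 8 genes fell, beside the 10.9% of all genes. *P3H2*, a prolyl 3-hydroxylase, had 8.46 ± 0.325 CPM in the controls and 3.19 ± 0.178 CPM with the mimic (SD, n = 2 each), an edgeR log2 fold change of −1.41 and an adjusted p of 1.68e-05. *FKBP14* and *CRTAP*, named after their values were seen, fell by 0.69 and 0.51 on the log2 scale. Both collagen galactosyltransferases fell. The means of *COLGALT2* were 6.31 ± 0.321 and 1.61 ± 0.590 CPM (SD, n = 2 each; log2 fold change −1.95). Those of *COLGALT1*, which has far more counts, were 179 ± 7.92 and 115 ± 1.52 CPM (log2 fold change −0.64).

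In procollagen export from the endoplasmic reticulum, 4 of 10 genes fell, where 10.9% of all genes tested passed as lower. *CREB3L1*, a membrane-bound transcription factor known to drive collagen secretion genes, had 158 and 141 CPM in the controls and 31.6 and 29.7 CPM with the mimic, an edgeR log2 fold change of −2.29 and an adjusted p of 2.79e-08. *SEC24D*, a cargo adaptor of the COPII coat that carries procollagen, had 176 and 180 CPM in the controls and 70.6 and 73.5 CPM with the mimic, and its log2 difference was −1.30 at an adjusted p of 9.83e-07. *SEC23A* and *SAR1A*, of the same coat, fell by 0.51 and 0.48. Of the other procollagen proteinases and enhancers, 4 of 8 genes had counts enough to be tested and 2 fell. These were *ADAMTS2*, a procollagen N-proteinase, at 11.1 ± 0.530 and 4.48 ± 0.454 CPM (log2 fold change −1.30), and *TLL1*, a relative of BMP1, at 2.64 ± 0.0680 and 1.16 ± 0.282 CPM (log2 fold change −1.17; SD, n = 2 each). The proteinases of the C-propeptide thus went in opposite directions, *BMP1* higher and the scarcer *TLL1* lower.

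The families to which *P4HB* and the hydroxylases belong, and their substrates, were also compared. Of 12 other protein disulfide isomerases and partners, 11 were tested and 1 fell, a share close to the 10.9% of all genes that passed as lower. It was *ERO1A*, the oxidase that recharges them, which fell by 0.80 on the log2 scale, just short of the fold threshold. The most abundant, *PDIA3*, had 566 ± 3.84 CPM in the controls and 515 ± 61.3 CPM with the mimic (SD, n = 2 each), an edgeR adjusted p of 0.391. Of 5 oxygenases of the hypoxia-inducible factor (HIF) pathway, which use the same cosubstrate as the collagen hydroxylases, all 5 were tested, their median log2 fold change was 0.24, and 1 rose, beside 7.96% of all genes. It was *P4HTM*, a transmembrane prolyl 4-hydroxylase, at 7.38 ± 0.643 CPM in the controls and 13.6 ± 1.14 CPM with the mimic (SD, n = 2 each; log2 fold change 0.89, edgeR adjusted p 0.000267). Of 11 fibrillar collagen chains, 10 were tested and 4 fell, beside 10.9% of all genes. The log2 fold changes were −1.58 for *COL5A3*, at only 1.64 CPM in the controls, −1.46 for *COL1A1*, −1.11 for *COL1A2* and −0.44 for *COL3A1*. The other 6 did not pass. Among them, *COL5A1* had means of 1100 CPM in the controls and 1148 CPM with the mimic (log2 fold change 0.06). *COL5A2* had 423 and 411 CPM (−0.04), and the scarce *COL11A2* 2.06 and 3.47 CPM (0.76, edgeR adjusted p 0.0114). *TGFBR2*, the receptor subunit that binds rhTGF-β1, had 547 ± 7.44 CPM in the controls and 111 ± 1.64 CPM with the mimic (SD, n = 2 each; log2 fold change −2.31). The part of the lower mesenchymal markers and of *TGFBR2* in the values of the 10 genes was not tested.

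**Figure D4:**
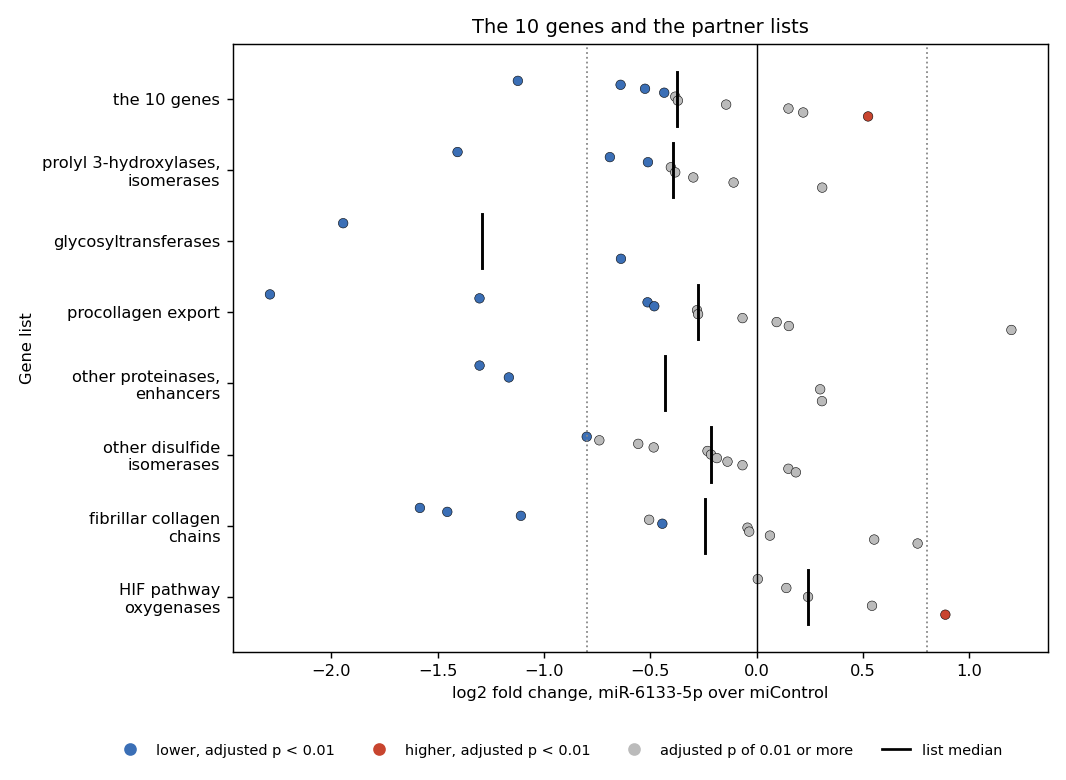
Log2 fold change of each tested gene (points, colored by whether it passed at an adjusted p of 0.01) in the list of 10 genes and in 7 lists of partner genes, with a bar at each list's median and dotted lines at the fold threshold of 0.8. The median is above 0 for the HIF pathway oxygenases, at 0.24, and below 0 for the other lists, from −1.29 for the 2 glycosyltransferases to −0.21 for the disulfide isomerases, and the red points are *BMP1* and *P4HTM*.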

How the data were processed

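RNAseq was analysed in 4 libraries of LX-2 cells, 2 per group. Per the labels, polyadenylated RNA was made into stranded libraries, and the authors aligned read pairs of 150 bases to GRCh37 with STAR 2.5.3a and counted with featureCounts of Subread 1.6.4. The deposited values are whole-number counts per Ensembl gene, with no normalization. They came to between 1.68 and 1.70 counts per uniquely mapped pair, so mates were counted separately and a fragment could give more than 1 count. The strand setting and annotation release are not given in the sources used here. The fraction of input pairs mapped uniquely, as deposited, and the numbers of pairs served only for that ratio.

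Symbols, positions and exon lengths came from GENCODE 44 lifted to GRCh37, and 55665 of 63677 identifiers matched a symbol. Genes were filtered with filterByExpr, normalized by TMM and tested in edgeR 4.0.16 under R 4.3.3 (glmQLFit, glmQLFTest, two-sided, Benjamini–Hochberg over 18252 genes, thresholds of 0.01 and of 0.8 on the log2 scale). Standard errors came from the F statistic, and the biological coefficient of variation was 0.105. Ratios within libraries had an exact permutation test. The procedure was tested on simulated data.

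The 10 genes and all lists were chosen with earlier results of these data known. In each list, the genes named are those called, at most 4 per direction, or else the most abundant, and *TGFBR2*, *COL1A1* and *COL1A2* serve for comparison. Genes that passed without being called, and *COL5A1*, *COL5A2* and *COL11A2*, are named after their values were seen. Alternatives were RLE factors, library totals alone, DESeq2 1.42.0, no filter, at least 10 counts in every library, a replicate block, thinning to the smallest total, each library left out, glmTreat, an adjusted p of 0.05 and canonical transcript lengths, the last added after the data were seen. Python 3.11.15, scipy 1.17.1 and matplotlib 3.10.9 served for tables and plots. Of the planned marker lists, 1 is not reported here.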

Additional observations from a re-analysis of the deposited data

How the results depend on the processing

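Of the 10 genes, *PLOD2* kept its call in every alternative run except glmTreat against a log2 fold change of 0.8, where 0 of the 10 were called (*PLOD2* −1.12, adjusted p 0.0353), and *P4HA2* (−0.43), *P4HB* (−0.64), *SERPINH1* (−0.53) and *BMP1* (0.52) had an adjusted p of 1. With library totals alone, 2 of the 10 passed as lower, since *P4HA2* (−0.27, adjusted p 0.0508) and *SERPINH1* (−0.36, adjusted p 0.0199) were lost. *PLOD3* stood at 0.0201 there (adjusted p 0.904), and over all genes 977 were called as higher against 529. *PLOD1* passed with no filter (−0.36), a replicate block (−0.37, edgeR adjusted p 0.00553), an adjusted p of 0.05 (−0.37) and DESeq2 (−0.38). RLE factors, thinning and a minimum of 10 counts left the calls of the 10 genes as they were.

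In the lists, 5 prolyl 3-hydroxylases or isomerases passed as lower with no filter, at least 10 counts, a replicate block, an adjusted p of 0.05 and DESeq2, and 1 as higher with totals alone, where 2 export genes passed as lower. Of the other disulfide isomerases, 2 passed as lower with no filter and 3 with a replicate block or an adjusted p of 0.05. With totals alone, no filter, a replicate block or an adjusted p of 0.05, 1 fibrillar collagen chain and 2 HIF pathway oxygenases passed as higher. The cause of these shifts was not tested.

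The correlation over genes of the deviations of same-numbered libraries from their group means was 0.0490. As each group had 2 libraries, this value cannot tell whether same-numbered libraries were handled together. With a replicate block, 2562 genes passed as lower and 2111 as higher, against 1984 and 1452. At an adjusted p of 0.05 these were 2937 and 2574, and with glmTreat 326 and 80.

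When single libraries were left out, the lone library of a group was assumed to vary like the other group. The number of the 10 genes that passed as lower ran from 1 (without miControl replicate 1) to 5 and as higher from 0 (without either miControl library) to 1. The log2 fold changes ranged from −0.48 to −0.43 for *P4HA2*, −0.72 to −0.60 for *P4HB*, −0.46 to −0.31 for *PLOD1*, −0.63 to −0.45 for *SERPINH1* and 0.45 to 0.57 for *BMP1*. They ranged from −0.25 to −0.0696 for *PLOD3* (without miControl replicates 2 and 1) and from 0.0566 to 0.21 for *P4HA1* (without miR-6133-5p replicates 1 and 2), and neither gene passed in any of these fits. The log2 ratio of *P4HA2* to *P4HA3* ranged from −0.13 to 0.0177 (without miR-6133-5p replicate 1). The number that passed as lower ran from 1 to 6 for the prolyl 3-hydroxylases and isomerases, 1 to 2 for the glycosyltransferases, 2 to 5 for export, 1 to 2 for the proteinases, 1 to 3 for the disulfide isomerases and 2 to 5 for the fibrillar collagens. From 0 to 2 fibrillar collagens and 0 to 2 HIF pathway oxygenases passed as higher. Over all genes, 833 to 2750 passed as lower and 305 to 2024 as higher.

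Seed matches of miR-6133-5p in 3′ untranslated regions were not run, since the mature sequence was not used here. Depth limits *P4HA3* most, where 1 count was worth 1.04% of the value in the library with the fewest counts of it.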
